A study of Mus musculus with 16 samples.

Results

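Cholesterol in the brain is made locally, because the blood-brain barrier keeps out the lipoproteins of the circulation. Hmgcs1 encodes the cytosolic HMG-CoA synthase at the entry of the mevalonate pathway, and Sqle encodes squalene epoxidase, the first oxygen-requiring step of sterol synthesis. Srebf2 encodes SREBP2, the membrane-bound factor that is released to the nucleus when sterols are low and switches on synthesis and uptake genes, and Insig1 encodes the protein of the endoplasmic reticulum that holds this factor back when sterols are high. Cyp46a1 encodes cholesterol 24-hydroxylase, which turns cholesterol into the form that leaves the brain and is known as a neuronal enzyme. These 5 genes were chosen by name and described over cell classes and groups of mice, and all 5 were among the 19999 genes of the count table.

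Single-nucleus RNA-Seq of the medial prefrontal cortex (PFC) was available for 16 male mice at the labelled age of 22 weeks, with 4 mice in each of 4 groups. WT controls and alcohol-exposed WT mice were B6;129 animals, and the 3xTg-AD mice were on a B6;129 background as well. 3xTg-AD mice carry human APP with the Swedish mutation and human tau with P301L as neuronally driven transgenes and a knocked-in presenilin 1 with M146V, and were studied without and with exposure to alcohol. Alcohol-exposed mice received intermittent alcohol vapor after injections of ethanol with pyrazole, an inhibitor of alcohol dehydrogenase, while both control groups breathed air after pyrazole in saline, so that all 4 groups had received pyrazole. Tissue was taken after the vapor exposure had ended and after testing in a water maze, so alcohol-exposed means a history of exposure. Counts of unique molecular identifiers (UMIs) were summed per mouse and cell class, and a level below is the UMIs per 1000000 UMIs of that class, scaled between mice by the trimmed mean of M-values (CPM).

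The table held 114512 nuclei and 216742276 UMIs, with 4955 to 9096 nuclei and 9622031 to 17544364 UMIs per mouse. Clusters were named from marker genes without use of the cholesterol genes, which placed 74663 nuclei in 9 broad classes and left 34.8% unnamed. Names stand for marker-like clusters. Limits on Slc17a7 and Gad1 were set after the clusters and their leading genes had been seen. Some of them define the glutamatergic class, and the others kept 28613 nuclei out of a class, at group means of 25.7 ± 10.3% in WT controls, 27.9 ± 6.11% in alcohol-exposed WT mice, 24.6 ± 3.26% in 3xTg-AD mice and 21.1 ± 6.40% in alcohol-exposed 3xTg-AD mice (SD, n = 4). The clusters named as neurons carried the Slc17a7 or Gad1 of their class, but Slc17a7, the vesicular glutamate transporter of glutamatergic neurons, was also read in the glial and vascular classes at 352 to 495 CPM, against 718 ± 63.4 CPM (SD, n = 16) in glutamatergic neurons and 179 ± 34.8 CPM in GABAergic neurons. Of the named nuclei, 24660 held at least 3 UMIs of the markers of another class, most of them glutamatergic neurons, of which 34090 of 47497 nuclei remained without such nuclei. In astrocytes 4685 of 7605 nuclei remained. Barcodes found in more than 1 library numbered 1694, covering 3400 nuclei. Gm42418, a transcript that collects ribosomal RNA reads, stood at 17914 to 29047 CPM in 3xTg-AD mouse 12 and the WT controls 26 and 27, against 2059 to 4249 CPM in the other 13 mice. Differences of single members from the control groups, over all nuclei and in broad classes, are also given without mice 12, 26 and 27.

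The promoters are shown first, since 4 of the members had their highest mean level in astrocytes and Cyp46a1 had its highest in neurons. RefSeq promoter windows, from 250 bases before to 50 bases after the start site, were matched for 4 of the 5 members on build GRCm38.p6, all on the plus strand. Hmgcs1 was read at chr13:119690101-119690400, Srebf2 at chr15:82147019-82147318, Insig1 at chr5:28071162-28071461 and Cyp46a1 at chr12:108334066-108334365. Capitals mark TCACCCCA, a core of the sterol regulatory element that SREBP factors bind, and CACGTG, the E-box, each searched on both strands, and the 2 motifs did not overlap in these windows.
Hmgcs1: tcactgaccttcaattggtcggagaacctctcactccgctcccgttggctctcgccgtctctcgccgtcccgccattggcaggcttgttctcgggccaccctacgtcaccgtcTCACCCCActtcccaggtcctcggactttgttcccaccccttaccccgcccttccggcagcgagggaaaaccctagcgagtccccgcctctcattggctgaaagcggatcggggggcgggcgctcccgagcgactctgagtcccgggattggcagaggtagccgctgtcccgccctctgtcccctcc
Srebf2: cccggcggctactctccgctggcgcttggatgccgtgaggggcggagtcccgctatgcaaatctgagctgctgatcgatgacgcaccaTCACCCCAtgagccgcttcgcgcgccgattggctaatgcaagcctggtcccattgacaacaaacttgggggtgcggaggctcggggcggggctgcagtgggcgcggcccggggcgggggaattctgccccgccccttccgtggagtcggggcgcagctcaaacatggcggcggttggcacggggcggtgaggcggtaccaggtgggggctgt
Insig1: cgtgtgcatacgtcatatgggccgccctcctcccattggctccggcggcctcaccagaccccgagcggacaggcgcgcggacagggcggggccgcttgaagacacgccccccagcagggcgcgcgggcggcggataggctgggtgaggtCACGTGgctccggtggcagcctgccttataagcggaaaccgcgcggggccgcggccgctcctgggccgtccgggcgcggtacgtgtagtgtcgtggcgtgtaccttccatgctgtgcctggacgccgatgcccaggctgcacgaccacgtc
Cyp46a1: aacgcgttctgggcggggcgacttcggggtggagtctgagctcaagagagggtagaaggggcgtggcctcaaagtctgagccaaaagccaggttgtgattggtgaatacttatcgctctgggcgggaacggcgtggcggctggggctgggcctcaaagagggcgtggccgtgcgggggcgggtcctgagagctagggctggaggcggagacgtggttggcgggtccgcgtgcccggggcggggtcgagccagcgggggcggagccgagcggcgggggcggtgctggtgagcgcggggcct
The Hmgcs1 and Srebf2 windows each held TCACCCCA once, beginning 137 and 162 bases before the start site, while 1.47% of the 27025 promoters of this length held it. The Insig1 window held CACGTG once, 101 bases before the start site, a motif found in 7.24% of all promoters. In the Cyp46a1 window neither motif was present, and GGGCGG, the GC box, was counted 6 times, against 3 times for Hmgcs1 and Insig1 and 5 times for Srebf2. At least 1 GC box was found in 35.9% of all promoters. A match describes these letters and is not evidence of binding. By GENCODE on GRCm38, the members are protein-coding genes at chr13:119690379-119708260 for Hmgcs1, chr15:59315077-59331192 for Sqle, chr5:28071363-28078662 for Insig1, chr15:82147181-82205379 for Srebf2 and chr12:108334381-108362234 for Cyp46a1, all on the plus strand.

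Over the broad classes, astrocytes had the highest mean level of all 4 genes of synthesis and its control, and neurons had the highest mean level of Cyp46a1. Hmgcs1 averaged 227 ± 32.5 CPM in astrocytes (SD, n = 16 mice) and 83.6 ± 10.2 CPM in glutamatergic neurons, and was higher in astrocytes in 16 of 16 mice, by 2.63-fold at the median with a range of 2.11- to 3.52-fold. Its levels in the other classes lay in between or near the neurons, at 175 ± 79.8 CPM in leptomeningeal fibroblast-like cells, 154 ± 38.1 CPM in microglia and perivascular macrophages, 145 ± 57.3 CPM in endothelial cells, 141 ± 32.6 CPM in oligodendrocyte precursors (OPCs), 133 ± 23.7 CPM in oligodendrocytes and 85.4 ± 12.8 CPM in GABAergic neurons. With the limits that left clusters out of a class lifted and those that define glutamatergic neurons kept, an alternative added after the data had been seen, Hmgcs1 read 277.5 CPM in astrocytes, 244 CPM in microglia and perivascular macrophages and 209.5 CPM in oligodendrocytes, and astrocytes remained highest. In the order with all limits only the step from oligodendrocytes down to GABAergic neurons exceeded the larger SD of its neighbours, so the glial and vascular classes were not ranked among themselves. The unnamed nuclei, with a median of 863 UMIs against 2469 in glutamatergic neurons, read Hmgcs1 at 259 ± 51.7 CPM without scaling between mice, above every fitted class, and Slc17a7 at 699 ± 95.2 CPM.

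Sqle separated astrocytes from the rest more sharply. It averaged 110.0 ± 13.9 CPM in astrocytes, beyond the SD of every other class, and lay between 38.3 and 60.1 CPM in the other 7 classes, whose neighbours did not differ beyond their spread. Astrocytes exceeded glutamatergic neurons in 16 of 16 mice, by 2.14-fold at the median. With the same limits lifted the astrocyte level was 91.4 CPM. Among the unnamed nuclei the level was 61.8 ± 11.7 CPM, so the high reading of Hmgcs1 in those nuclei was not shared by Sqle.

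Insig1 was the sparsest member, with 4251 UMIs in all nuclei, and had the widest spread between classes. Astrocytes averaged 57.3 ± 13.2 CPM and oligodendrocytes 35.2 ± 14.7 CPM, each separated from the next class by more than the larger SD. The other 6 classes lay between 15.3 and 18.6 CPM without separation. Relative to glutamatergic neurons, astrocytes were 3.60-fold higher at the median and higher in 16 of 16 mice, and oligodendrocytes 2.32-fold higher and higher in 15 of 16 mice.

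Srebf2 varied least over classes. Its level was 192 ± 30.1 CPM in astrocytes, 138 ± 19.6 CPM in glutamatergic neurons and 136 ± 29.2 CPM in oligodendrocytes, and 108 to 116 CPM in the other 5 classes. The step below astrocytes exceeded the larger SD and the steps after it did not. Astrocytes exceeded glutamatergic neurons in 16 of 16 mice, by 1.36-fold at the median.

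Cyp46a1 had a different order, led by neurons. GABAergic neurons averaged 165 ± 30.5 CPM and glutamatergic neurons 143 ± 25.4 CPM, which did not differ beyond their spread, although GABAergic neurons were higher in 15 of 16 mice. The step from glutamatergic neurons to microglia and perivascular macrophages, at 101 ± 25.3 CPM, exceeded the larger SD, and the remaining classes fell to 61.4 ± 29.0 CPM in endothelial cells. Astrocytes, at 98.8 ± 12.8 CPM, were below glutamatergic neurons in 16 of 16 mice, at 0.695 of their level at the median. Over the same mice the Slc17a7 of astrocytes was 0.501 of that of glutamatergic neurons, and the part of neuronal RNA in the glial readings of Cyp46a1 was not tested. Leaving out nuclei with markers of another class gave 98.4 CPM in astrocytes and 154 CPM in glutamatergic neurons, so the difference was at least as large in the nuclei that remained. Free RNA in the remaining nuclei is not taken away by this, so it does not measure the part of neuronal RNA.

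**Figure D1:**
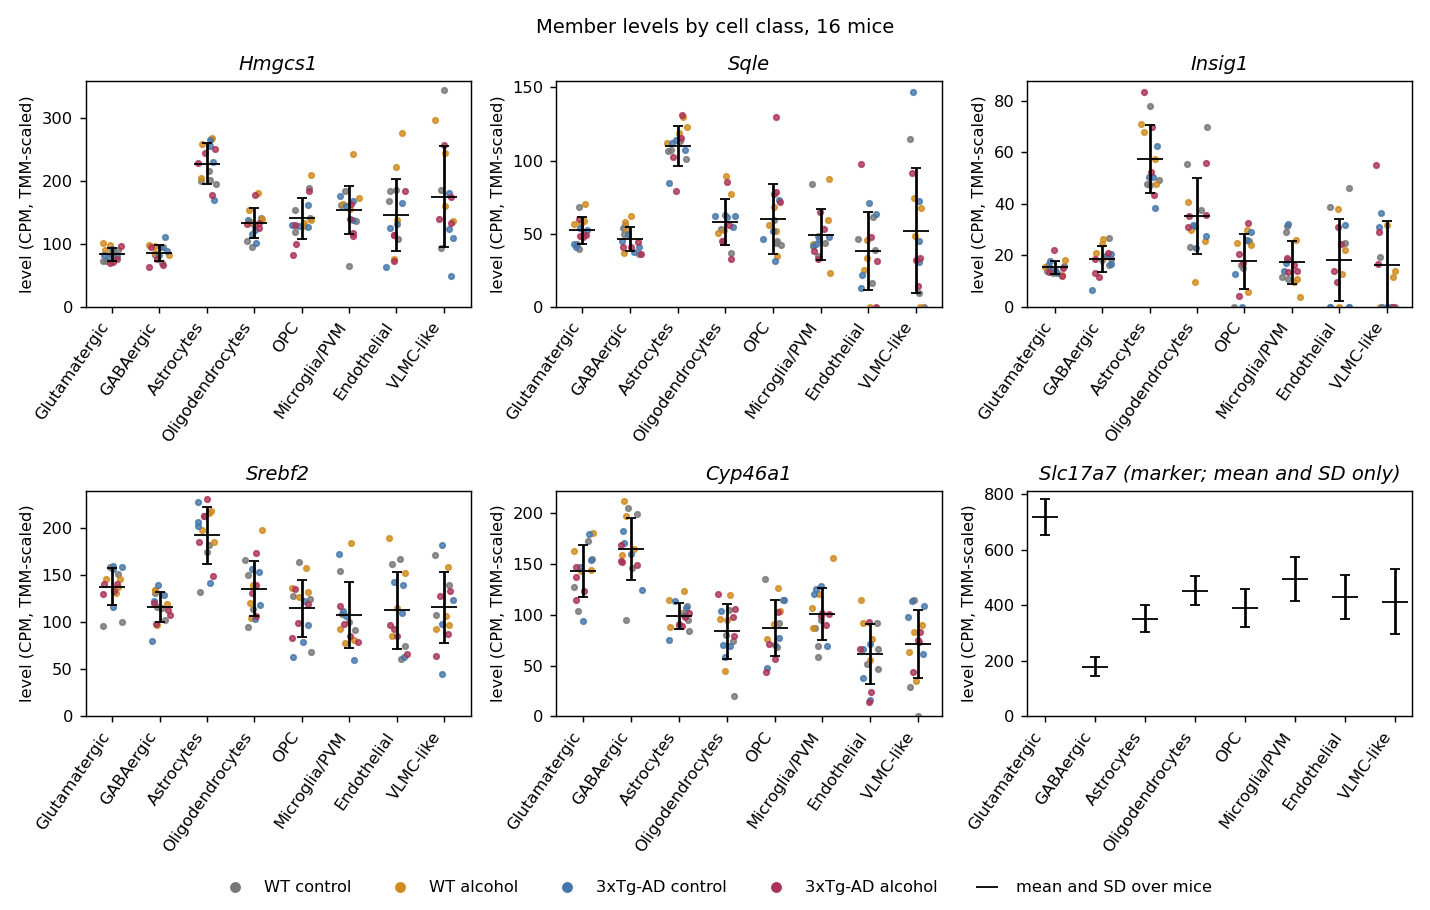
Levels of the 5 members and of the marker Slc17a7 by broad class, in CPM on linear axes, with 1 point per mouse for the members and the mean and SD over mice as bars. Astrocytes are highest for Hmgcs1, Sqle, Insig1 and Srebf2, at 227, 110.0, 57.3 and 192 CPM, while Cyp46a1 is highest in neurons and Slc17a7 is read in every class. OPC stands for oligodendrocyte precursors, PVM for perivascular macrophages and VLMC-like for leptomeningeal fibroblast-like cells.

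Most other genes of the pathway were also higher in astrocytes. From a list of 51 cholesterol genes, which includes the 5 members, 43 reached 20 CPM in astrocytes or glutamatergic neurons. Of these, 34 were higher in astrocytes, with a median log2 difference of 0.75. Over all 8736 genes at that level 49.2% were higher, with a median of -0.01. All 11 measured genes from squalene to cholesterol were higher in astrocytes, as were 7 of 8 genes of the mevalonate and isoprenoid steps. A gene that reached 20 CPM in astrocytes alone could only count as higher there. Among these steps that held for Acat2, Mvk, Tm7sf2, Nsdhl and Hsd17b7, and the share over all genes followed the same rule. Among genes chosen after their values were seen, Msmo1, a sterol C4-methyl oxidase, stood at 226 ± 49.1 against 50.4 ± 8.15 CPM, and Abca1, which exports cholesterol to apolipoproteins, at 91.1 ± 13.6 against 4.22 ± 1.15 CPM. Lower in astrocytes in 16 of 16 mice, beside Cyp46a1, were the transporters Abcg1 and Abcg4, the receptor Lrp8 and the sterol transporter Gramd1b. In oligodendrocytes, the makers of myelin, 19 of 38 list genes were higher than in glutamatergic neurons, beside 45.4% of all genes.

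Within neurons the orders of the synthesis genes and of Cyp46a1 were opposed in some subclasses and not in others. Some neuronal clusters had no subclass name and are not in these orders. The largest, a glutamatergic cluster led by Rorb, held 6078 nuclei. Among glutamatergic subclasses, Sqle rose from 34.04 ± 6.48 CPM in L2/3 intratelencephalic (IT) neurons through 48.5 ± 9.29 CPM in L5 extratelencephalic (ET), 61.6 ± 12.6 CPM in L5 IT, 65.7 ± 14.1 CPM in L6 IT and 73.6 ± 19.2 CPM in L6 corticothalamic (CT) neurons to 84.8 ± 23.9 CPM in L5/6 near-projecting (NP) neurons. The steps from L2/3 IT to L5 ET and from L5 ET to L5 IT exceeded the larger SD and the later ones did not, and L6 CT exceeded L2/3 IT in 16 of 16 mice, by 2.05-fold at the median, and L5/6 NP exceeded L2/3 IT in 16 of 16 mice, by 2.48-fold. Srebf2 ran from 108 ± 18.1 CPM in L2/3 IT to 216 ± 36.4 CPM in L5/6 NP neurons, and Hmgcs1 from 67.2 ± 10.4 to 109 ± 22.9 CPM. Insig1 was also lowest in L2/3 IT neurons, with means from 10.4 ± 2.10 CPM there to 20.5 ± 5.59 CPM in L6 CT neurons.

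Among the same glutamatergic subclasses, Cyp46a1 was highest in L2/3 IT neurons, where those genes were lowest, and lowest in L6 CT and L5/6 NP neurons. L2/3 IT neurons averaged 173 ± 27.4 CPM, L6 IT 164 ± 34.5 CPM, L5 IT 141 ± 28.1 CPM, L5 ET 112 ± 15.9 CPM, L6 CT 92.3 ± 22.8 CPM and L5/6 NP neurons 85.3 ± 22.8 CPM. The step from L5 IT to L5 ET exceeded the larger SD. L5 ET neurons did not share the opposed pattern, being below L5 IT neurons in 16 of 16 mice both for Cyp46a1, at 0.820 of their level at the median, and for Sqle, at 0.815. L6 IT neurons read Sqle at 65.7 CPM against 34.04 CPM in L2/3 IT neurons, while their Cyp46a1 did not differ beyond the larger SD. For Cyp46a1, L6 CT neurons were below L2/3 IT neurons in 16 of 16 mice, at 0.534 of their level at the median, and L5/6 NP neurons at 0.486. Slc17a7 was 1.21-fold higher in L6 CT and 0.939 of the L2/3 IT level in L5/6 NP neurons, so Cyp46a1 differed more than that marker in both pairs. From L5 IT to L5 ET neurons the marker differed more than either gene, at 0.709 of the L5 IT level and below it in 16 of 16 mice, and the part of this in their lower levels was not tested. Over the 6 glutamatergic subclass means, which share libraries and depth, Pearson's r of Sqle with Srebf2 was 0.97 and of Sqle with Cyp46a1 -0.69.

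Among GABAergic subclasses, parvalbumin (Pvalb) neurons had the lowest Sqle at 27.8 ± 10.4 CPM and vasoactive intestinal peptide (Vip) neurons the highest at 80.5 ± 24.4 CPM, with Vip higher in 16 of 16 mice and 3.08-fold at the median. Srebf2 stood at 86.0 ± 19.6 against 171 ± 49.7 CPM in the same pair, higher in Vip neurons in 15 of 16 mice. Cyp46a1 was 194 ± 36.4 CPM in Pvalb and 97.4 ± 33.3 CPM in Vip neurons, lower in Vip neurons in 16 of 16 mice. The highest mean Cyp46a1 of any subclass was in Lamp5 neurons, at 210 ± 51.6 CPM, and the lowest in Sncg neurons, at 55.4 ± 30.5 CPM, with Sst neurons at 181 ± 34.4 CPM. Lamp5 neurons exceeded Sncg neurons in 15 of 15 mice with a reading in both. Slc17a7 also differed between these subclasses, at 160 ± 38.3 CPM in Pvalb and 237 ± 68.6 CPM in Vip neurons, and over the 5 GABAergic subclasses its order was the same as that of Hmgcs1 (Spearman's rho 1.0), whereas with Cyp46a1 rho was -0.2. The part of free glutamatergic RNA in the GABAergic order of the synthesis genes was not tested.

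**Figure D2:**
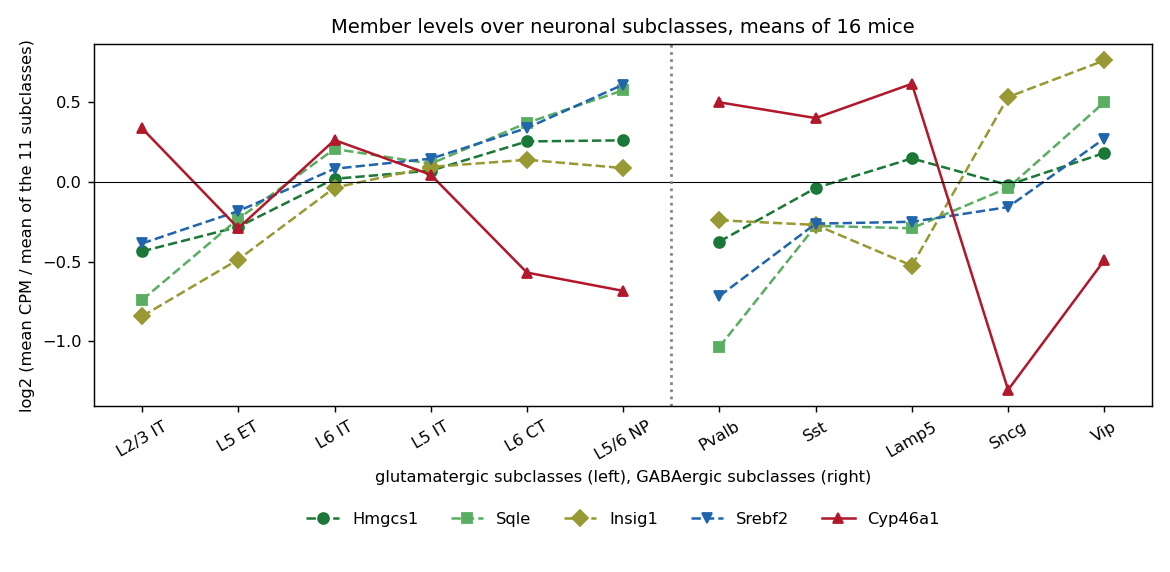
Mean level of each member in each neuronal subclass over 16 mice, as the log2 ratio to the mean of the 11 subclasses, with glutamatergic subclasses on the left and GABAergic subclasses on the right of the dotted line. Cyp46a1 (solid line) is low and Sqle and Srebf2 (dashed) are high in L6 CT, Vip and L5/6 NP neurons, the last at 85.3 CPM of Cyp46a1 and 84.8 CPM of Sqle. In L5 ET and Sncg neurons all 3 genes are below their mean, and in L5 IT and L6 IT neurons all 3 are above it.

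The synthesis parts of the wider list followed the synthesis members in these comparisons, and other parts of it did not in every case. All 10 measured genes from squalene to cholesterol were higher in L6 CT than in L2/3 IT neurons, with a median log2 difference of 0.65, beside 67.9% of all 7964 genes and a median of 0.11. From Pvalb to Vip neurons 7 of 8 such genes were higher, while 1 of 5 measured genes of uptake and transport and 0 of 6 of turnover, storage and efflux were, beside 47.5% of all genes. Over the whole list 30 of 35 genes were higher in L6 CT than in L2/3 IT neurons and 21 of 34 in Vip than in Pvalb neurons. These counts include the members. Genes that reached 20 CPM in L6 CT but not in L2/3 IT neurons, such as Tm7sf2, Nsdhl and Dhcr7, could only count as higher. The shares over all genes followed the same rule.

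The genes most like each member over the 19 classes and subclasses were taken by Pearson's r of the mean log2(CPM + 1), among 10817 genes with at least 20 CPM in 1 of them. For Sqle they were Fdft1 (r = 0.89), which makes squalene, Srebf2 (0.87) and Idi1 (0.87), an isomerase of the mevalonate pathway. Idi1 was also the gene most like Insig1 (0.88), followed by Acaa1a (0.82) and Tmcc1 (0.80). Srebf2 was nearest to Sqle (0.87), Gabrb1 (0.79) and Idi1 (0.79). Hmgcs1 instead sat with the astrocyte-enriched genes Apoe (0.92), Aldoc (0.92) and Plpp3 (0.91). Apoe and Aldoc were also among the leading genes of an unnamed cluster. The part of free RNA in the glial and vascular levels of Hmgcs1 was not tested. Cyp46a1 was nearest to Akap5 (0.90), Commd10 (0.89) and Epha10 (0.86). These classes share libraries, so the values describe likeness over classes and carry no p.

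Comparisons between the groups of mice asked whether genotype, alcohol or their combination moved the members, and 0 of 180 tests in 8 broad classes reached an adjusted p of at most 0.05 (edgeR quasi-likelihood test, Benjamini-Hochberg within class and contrast). Over all genes and the same classes and contrasts, 0.49% of tests were called. By contrast, the share of all genes called in the 8 classes was 1.82% for alcohol-exposed 3xTg-AD mice against WT controls, 0.265% for 3xTg-AD mice against WT controls, 0.032% for alcohol-exposed WT mice against WT controls, 0.261% and 0.555% for alcohol-exposed 3xTg-AD mice against 3xTg-AD mice and against alcohol-exposed WT mice, and 0.00356% for the interaction of genotype and alcohol. An unadjusted p under 0.05 was found in 11 of the 180 tests, or 6.11%, beside 9.18% of tests over all genes. DESeq2 also called 0 of the members. In neuronal subclasses 0 of 270 tests were called, beside 0.332% of tests over all genes, and 11 had an unadjusted p under 0.05, or 4.07% beside 8.18%. Hmgcs1 passed the filter on low counts in all 8 fitted classes, Srebf2 in 7, Sqle and Cyp46a1 in 6 and Insig1 in 3. In simulated counts with the spread of the glutamatergic data, the test recovered 69% of 2-fold and 35% of 1.5-fold changes against WT controls. The changed genes were drawn at random from all tested genes, so recovery for the members themselves was not measured. Smaller changes in them may not have been called.

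Over all nuclei of a mouse, where fewer cells of a class and less RNA per cell cannot be told apart, 0 of 30 tests were called. The share of all 16767 genes called was 4.06% for alcohol-exposed 3xTg-AD mice against WT controls, 0.435% for 3xTg-AD mice and 0.0179% for alcohol-exposed WT mice against WT controls, 0.483% and 0.942% for alcohol-exposed 3xTg-AD mice against 3xTg-AD mice and against alcohol-exposed WT mice, and 0.0% for the interaction. Of the members, Hmgcs1 alone had an unadjusted p under 0.05, in 3 of the 6 contrasts, so that 10.0% of the 30 tests did, beside 12% of tests over all genes. Hmgcs1 read 122, 108, 132 and 132 CPM in WT control mice 26, 27, 28 and 36. In alcohol-exposed WT mice 6, 7, 17 and 18, it read 159, 146, 147 and 151 CPM. All 4 alcohol-exposed WT mice were above all 4 WT controls. How often groups of 4 mice did not overlap over all genes was not counted, here or for the pairs of groups below.

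In 3xTg-AD mice 12, 13, 14 and 21, Hmgcs1 read 99.6, 139, 138 and 150.0 CPM, and in alcohol-exposed 3xTg-AD mice 4, 31, 33 and 34, 119.8, 101, 135 and 135 CPM. The 3xTg-AD groups overlapped each other and the WT controls, and the alcohol-exposed 3xTg-AD mice were all below the alcohol-exposed WT mice. The log2 difference of alcohol-exposed WT mice from WT controls was 0.29 ± 0.12 (SE; adjusted p = 0.32). That of alcohol-exposed 3xTg-AD mice from alcohol-exposed WT mice was -0.30 ± 0.12 (adjusted p = 0.28), and the interaction was -0.39 ± 0.17 (adjusted p = 0.94). Without the 3 mice with the most Gm42418 these differences were 0.18, -0.29 and -0.40, with adjusted p-values of 0.52, 0.10 and 0.87. Both comparisons of alcohol-exposed WT mice share those 4 mice. The share of unnamed nuclei, which read Hmgcs1 highest, averaged 38.1 ± 5.10% in alcohol-exposed WT mice, 35.5 ± 8.15% in WT controls, 32.7 ± 6.09% in 3xTg-AD mice and 31.03 ± 10.2% in alcohol-exposed 3xTg-AD mice (SD, n = 4), and its part in the Hmgcs1 values was not tested.

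Within named classes Hmgcs1 was likewise not called. Glutamatergic neurons averaged 80.0 ± 9.18 CPM in WT controls, 93.0 ± 7.69 CPM in alcohol-exposed WT mice, 83.3 ± 5.60 CPM in 3xTg-AD mice and 78.1 ± 12.9 CPM in alcohol-exposed 3xTg-AD mice (SD, n = 4). The difference of the alcohol-exposed genotypes was -0.25 ± 0.11 (adjusted p = 0.37). In GABAergic neurons, alcohol-exposed 3xTg-AD mice read 62.9, 65.8, 76.3 and 94.2 CPM and unexposed 3xTg-AD mice 88.2, 94.8, 82.3 and 111 CPM. These groups overlapped through mouse 34, and the log2 difference was -0.35 ± 0.15 (adjusted p = 0.41), or -0.38 without those 3 mice. The smallest unadjusted p of any member in a subclass was for Hmgcs1 in L5 ET neurons, where the alcohol-exposed 3xTg-AD mice, at 50.3 to 82.4 CPM, were below the alcohol-exposed WT mice, at 83.6 to 100.3 CPM, with a log2 difference of -0.49 ± 0.17 (adjusted p = 0.33).

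Sqle over all nuclei averaged 54.3 ± 11.8 CPM in WT controls, 63.8 ± 5.41 CPM in alcohol-exposed WT mice, 52.7 ± 2.43 CPM in 3xTg-AD mice and 56.4 ± 6.45 CPM in alcohol-exposed 3xTg-AD mice, and the difference of the last group from WT controls was 0.05 ± 0.13 (adjusted p = 0.86), or -0.17 without the 3 mice with the most Gm42418 (adjusted p = 0.49). Over all nuclei its values in alcohol-exposed WT mice, at 59.1 to 71.4 CPM, were all above those in unexposed 3xTg-AD mice, at 50.2 to 55.9 CPM, and in glutamatergic neurons the same groups lay at 56.6 to 70.3 and 40.9 to 54.2 CPM. No contrast was fitted for this pair, which differs in both genotype and alcohol. The separation therefore carries no p, and without a share over all genes it is not read as particular to Sqle. Among the broad classes its values also separated in OPCs, on few counts. The 4 alcohol-exposed 3xTg-AD mice read 77.3, 71.6, 78.6 and 129.9 CPM there, from 18 to 24 UMIs each, and the 4 WT controls 43.4, 42.4, 45.1 and 59.7 CPM, from 5 to 12 UMIs each. All 4 of the former were above all 4 of the latter, with a log2 difference of 0.83 ± 0.32 (adjusted p = 0.26), and the unexposed 3xTg-AD mice, at 31.5 to 73.2 CPM, overlapped both. The alcohol-exposed WT mice, at 34.5 to 68.0 CPM, were also all below the alcohol-exposed 3xTg-AD mice, with a log2 difference of 0.73 ± 0.30 (adjusted p = 0.60). Without the 3 mice with the most Gm42418 the difference from WT controls was 0.69 (adjusted p = 0.65). In GABAergic neurons the log2 difference of Sqle was -0.30 ± 0.18 in the same contrast (adjusted p = 0.46) and -0.36 ± 0.17 between the alcohol-exposed genotypes (adjusted p = 0.47). Without the 3 mice the former was -0.43 (adjusted p = 0.30). The values of these classes were not tested against each other.

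In neuronal subclasses Sqle separated some pairs of groups as well, with no call. These pairs are a selection from all subclasses and contrasts, and without the share over all genes they are not read as particular to Sqle. In L5/6 NP neurons the alcohol-exposed 3xTg-AD mice read 86.9, 87.2, 91.3 and 96.8 CPM, on 20 to 34 UMIs each, all above the unexposed 3xTg-AD mice at 47.9, 51.4, 68.3 and 74.8 CPM, with a log2 difference of 0.59 ± 0.25 (adjusted p = 0.58). In L5 IT neurons the same groups lay at 58.8 to 73.3 and 50.9 to 57.1 CPM, with a log2 difference of 0.31 ± 0.17 (adjusted p = 0.61). In L6 CT neurons alcohol-exposed WT mice, at 79.4 to 126 CPM, were above WT controls, at 56.6 to 77.9 CPM (log2 difference 0.41 ± 0.19, adjusted p = 0.49), and in Sst neurons alcohol-exposed 3xTg-AD mice, at 36.8 to 48.0 CPM, were below WT controls, at 50.4 to 63.0 CPM (-0.37 ± 0.29, adjusted p = 0.72).

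**Figure D3:**
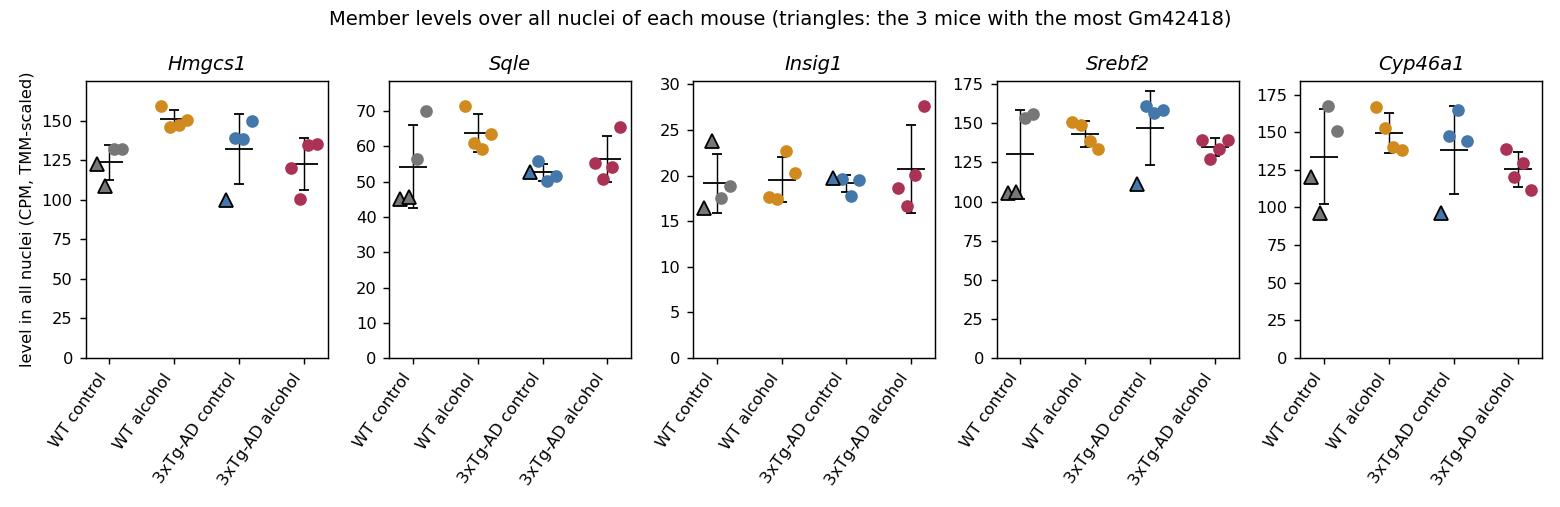
Level of each member over all nuclei of each mouse, in CPM on linear axes from 0, by group, with the mean and SD of 4 mice as bars and triangles for WT control mice 26 and 27 and 3xTg-AD mouse 12, the mice with the most Gm42418. For Hmgcs1, alcohol-exposed WT mice lie between 146 and 159 CPM, above the WT controls, and for Srebf2 the 3 triangles are the lowest mice of all.

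Insig1 overlapped between the groups over all nuclei. There its group means were 19.2 ± 3.22 CPM in WT controls, 19.5 ± 2.48 CPM in alcohol-exposed WT mice, 19.2 ± 0.940 CPM in 3xTg-AD mice and 20.7 ± 4.80 CPM in alcohol-exposed 3xTg-AD mice, and the 6 log2 differences ran from 0.00 to 0.11. With the 3 mice high in Gm42418 left out they ran from 0.034 to 0.18. In astrocytes, where its level was highest, the groups averaged between 50.4 and 62.3 CPM with SDs of 9.77 to 17.9 CPM. In GABAergic neurons, on 16 to 37 UMIs per mouse, alcohol-exposed 3xTg-AD mice lay at 11.6 to 21.1 CPM and alcohol-exposed WT mice at 19.2 to 26.2 CPM, which overlapped, with a log2 difference of -0.52 ± 0.25 (adjusted p = 0.48). In L2/3 IT neurons the same groups did not overlap and stood the other way, at 10.5 to 16.2 and 8.10 to 10.0 CPM, with a log2 difference of 0.38 ± 0.22 (adjusted p = 0.54).

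Srebf2 over all nuclei read 106, 106, 153 and 156 CPM in WT control mice 26, 27, 28 and 36 and 111, 161, 157 and 158 CPM in 3xTg-AD mice 12, 13, 14 and 21. In alcohol-exposed WT mice it lay between 134 and 151 CPM and in alcohol-exposed 3xTg-AD mice between 127 and 139.6 CPM. Within the control groups the low readings, 105.6 to 111 CPM, were those of the 3 mice with the most Gm42418, below all of the other 13 mice, which began at 127 CPM. Cyp46a1 was also low in these mice, at 96.6 to 120.2 CPM, with 1 of the other 13 mice below the highest of them. The part of these libraries' composition in the 2 genes was not tested.

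For these genes the group difference depended on those mice. The log2 difference of alcohol-exposed 3xTg-AD mice from WT controls over all nuclei was 0.05 ± 0.14 for Srebf2 (adjusted p = 0.88) and -0.10 ± 0.16 for Cyp46a1 (adjusted p = 0.79). Without the 3 mice it was -0.19 for Srebf2 (adjusted p = 0.22) and -0.34 for Cyp46a1 (adjusted p = 0.0936). With the log2 level of Gm42418 as a covariate it was -0.35 for Srebf2 (adjusted p = 0.0343) and -0.52 for Cyp46a1 (adjusted p = 0.0348), both then called, and Srebf2 was also called against unexposed 3xTg-AD mice, at -0.36 (adjusted p = 0.013). In glutamatergic neurons the covariate gave the same 3 calls, with -0.32 and -0.37 for Srebf2 and -0.54 for Cyp46a1. The alcohol-exposed 3xTg-AD mice, at 2059 to 3232 CPM of Gm42418, were all below the WT controls, which began at 3807 CPM. They were also below the unexposed 3xTg-AD mice, which began at 3477 CPM. The covariate and these group differences therefore cannot be told apart. The share of all genes called with the covariate is not given here. Under the other alternatives run, 0 members were called in the broad classes, in all nuclei and in the subclasses, where the covariate was not fitted.

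The groups overlapped for Cyp46a1 in glutamatergic and in GABAergic neurons. Glutamatergic neurons averaged 139.8 ± 30.3 CPM in WT controls, 158 ± 17.5 CPM in alcohol-exposed WT mice, 143 ± 35.9 CPM in 3xTg-AD mice and 131 ± 14.5 CPM in alcohol-exposed 3xTg-AD mice, and GABAergic neurons 161 ± 51.7, 183 ± 25.5, 159 ± 25.1 and 156 ± 8.56 CPM in the same order. In microglia and perivascular macrophages, on 6 to 36 UMIs per mouse, alcohol-exposed WT mice read 86.7, 107, 120.1 and 156 CPM and WT controls 69.2, 58.0, 87.1 and 94.7 CPM, groups that overlapped, with a log2 difference of 0.61 ± 0.28 (adjusted p = 0.50), or 0.38 without the 3 mice (adjusted p = 0.91). The interaction there was -0.78 ± 0.37 (adjusted p = 0.98), or -0.73 without the 3 mice. Slc17a7 in those nuclei averaged 537 ± 29.7 CPM in the former and 474 ± 142 CPM in the latter, and the part of neuronal RNA in this difference was not tested.

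Between the alcohol-exposed genotypes Cyp46a1 was below 0 on the log2 scale, lower in 3xTg-AD mice, in 6 of 6 broad classes and 10 of 10 subclasses fitted, which come from the same 8 mice, and 0 of these differences were called. Hmgcs1 was likewise below 0 in 8 of 8 broad classes and 10 of 10 subclasses, and all 5 members together were above 0 in 4 of 30 and 8 of 45 tests, beside 50.5% and 50.2% of tests over all genes that were below 0. In alcohol-exposed WT mice against WT controls the members were above 0 in 27 of 30 and 34 of 45 tests. Over all genes 50.53% and 50.65% of tests were below 0 there. Both contrasts share the alcohol-exposed WT mice. The WT controls include mice 26 and 27, which are high in Gm42418 and read Sqle over all nuclei at 45.0 and 45.6 CPM. The counts above 0 were not made without these mice, so they are not read as a joint rise of the members. In alcohol-exposed 3xTg-AD mice against WT controls the members were above 0 in 12 of 30 and 22 of 45 tests. In L2/3 IT neurons alcohol-exposed 3xTg-AD mice read 147, 152, 159 and 166 CPM and alcohol-exposed WT mice 174, 196, 206 and 211 CPM. These groups did not overlap, with a log2 difference of -0.34 ± 0.14 (adjusted p = 0.36). In L6 IT neurons the difference was -0.36 ± 0.17 (adjusted p = 0.55).

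**Figure D4:**
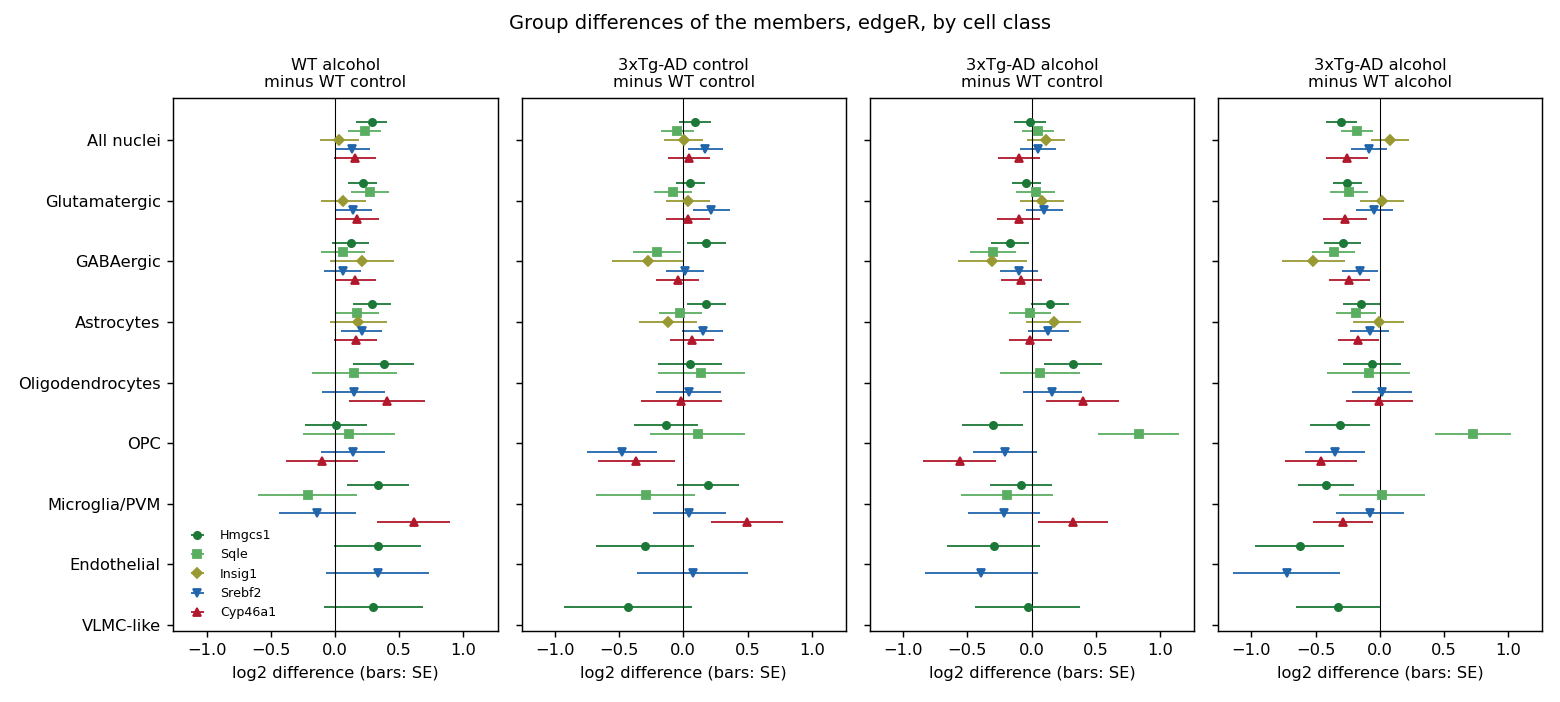
Log2 differences between groups (x axis) for each member, with SE as bars, over all nuclei and in each broad class in which the gene passed the filter on low counts, in 4 of the 6 contrasts. No difference was called, and the largest upward one shown is Sqle in oligodendrocyte precursors of alcohol-exposed 3xTg-AD mice against WT controls, at 0.83.

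Few tests of the wider list of cholesterol genes passed between groups. In the 8 broad classes 2 of 1296 tests of its genes were called, beside 0.49% of tests over all genes. Both were in glutamatergic neurons, of alcohol-exposed and of unexposed 3xTg-AD mice against WT controls, where 1.82% and 0.265% of tests over all genes and classes were called. Over all nuclei 1 of 300 was called, in alcohol-exposed 3xTg-AD mice against WT controls, beside 4.06% of all genes in that contrast. The median log2 difference of the list over all nuclei lay between -0.04 and 0.05 in the 6 contrasts, beside -0.01 to 0.01 for all genes.

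Whether the members varied together between mice was examined over the 16 mice in glutamatergic neurons, after subtraction of group means on the log2(CPM + 1) scale, for 10 pairs. The strongest pair was Srebf2 and Cyp46a1, with Pearson's r = 0.80 (permutation p = 0.0119, adjusted p = 0.12) and Spearman's rho = 0.71 (permutation p = 0.0173, adjusted p = 0.10). Leaving out the 2 mice with the Srebf2 level most distant from its median, which were mice 26 and 27, gave r = 0.80. With mouse 12 left out as well, so that none of the 3 mice high in Gm42418 remained, r was 0.32 over 13 mice. Srebf2 and Hmgcs1 gave r = 0.54 (adjusted p = 0.13) and rho = 0.59 (adjusted p = 0.10), Hmgcs1 and Sqle r = 0.54 (adjusted p = 0.13) and rho = 0.62 (adjusted p = 0.10), and Sqle and Srebf2 r = 0.49 (adjusted p = 0.30) and rho = 0.39 (adjusted p = 0.37). Insig1 and Cyp46a1 gave r = -0.49 (adjusted p = 0.13) and rho = -0.53 (adjusted p = 0.13). None of the 10 pairs passed correction with Pearson's r or with Spearman's rho, and 4 had an unadjusted p under 0.05 with one or the other.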

How the data were processed

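Nuclei of the medial PFC of 16 mice were sequenced with a droplet method, and the authors deposited UMI counts per gene and nucleus, made with Cell Ranger 6.1.1 on the mouse build mm10 per the labels and methods; whether intronic reads were counted is not given in the sources used here. The values are raw counts, and they were used as deposited. A gene listed above 0 in a mouse was found in at least 5 nuclei of that mouse. The members and gene lists were chosen with earlier results of these data known.

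Nuclei were clustered with scanpy 1.11.5 (2000 variable genes without the cholesterol list, 30 components, 20 neighbours, resolution 1.5). A cluster of at least 50 nuclei was named from at least 3 markers at 1.5-fold or more. A first naming by markers alone gave no glutamatergic class. Limits on Slc17a7 and Gad1 were then set in successive rounds after the leading genes of the clusters had been seen, and glutamatergic markers were read against the clusters low in Slc17a7. Names may differ from the study's own. No doublet caller was run, and nuclei with at least 3 UMIs of another class's markers were left out in an alternative.

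Counts were summed per mouse and class (at least 10 nuclei per mouse and 3 mice per group) and tested with edgeR 4.0.16 in R 4.3.3 (quasi-likelihood test, TMM, filter by expression, 4 group means, Benjamini-Hochberg within class and contrast, called at 0.05). DESeq2 1.42.0 was an alternative. Each sample is labelled as a separate mouse. Mural cells and L6b neurons had too few nuclei and were not fitted. All members were named, and for each member the 3 genes most like it over classes. Some genes of the cholesterol list are not reported here. The test was checked on simulated counts. Total counts of 9622031 to 17544364 per mouse set the precision.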

Additional observations from a re-analysis of the deposited data

Results flagged for a closer look

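In 15 of 139 groups of 4 mice, 1 mouse lay far from the other 3, with a gap to its nearest neighbour above Dixon's critical value for 4 samples, where chance gives about 1 in 20 groups. Mouse 12 of the 3xTg-AD group, which carried much Gm42418, was low for Srebf2 over all nuclei at 111.3 CPM, against 156.8 to 160.9 CPM in the others, and in glutamatergic neurons at 116.0 CPM against 156.0 to 159.2 CPM. It was also low for Cyp46a1 in microglia and perivascular macrophages at 69.04 CPM and for Sqle in oligodendrocytes at 54.33 CPM. WT control mouse 27, another mouse with much Gm42418, was high for Insig1 in astrocytes at 78.12 CPM, against 47.16 to 49.47 CPM.

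Mouse 34 of the alcohol-exposed 3xTg-AD mice was high for Sqle in OPCs at 129.9 CPM, for Sqle in glutamatergic neurons at 60.19 CPM and for Hmgcs1 in oligodendrocytes at 176.7 CPM. Without this mouse, the log2 difference of Sqle in OPCs from WT controls was 0.63. WT mouse 6, exposed to alcohol, was high for Sqle in glutamatergic neurons at 70.34 CPM and for Hmgcs1 in OPCs at 209.7 CPM. Of the other alcohol-exposed WT mice, mouse 18 was low for Hmgcs1 in astrocytes at 205.1 CPM and mouse 7 high for Srebf2 in microglia and perivascular macrophages at 184.5 CPM. The remaining single mice were 3xTg-AD mouse 13, high for Hmgcs1 in OPCs at 162.1 CPM, 3xTg-AD mouse 14, low for Insig1 over all nuclei at 17.78 CPM, and WT control mouse 36, high for Sqle in OPCs at 59.7 CPM.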

How the results depend on the processing

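No paired analysis was possible because each mouse number belongs to a single group. The counts of called members were 0 under every alternative run except the Gm42418 covariate. It gave 3 calls in 180 tests in the broad classes and 3 in 30 tests over all nuclei. The share of all genes called with the covariate is not given here, so these calls are not read as particular to the members. All 5 members kept their highest broad class under plain CPM, assignment of nuclei by marker UMIs, removal of nuclei with markers of a second class and, chosen after seeing the data, naming without the Slc17a7 and Gad1 limits that left clusters out of a class (those defining glutamatergic neurons were kept). Of the levels under these alternatives 139 stayed within 1 SD and 11 did not. The cholesterol list had 2 calls, 9 with the covariate, 0 without nuclei with markers of a second class and 1 to 3 with a mouse left out. Over all nuclei, in alcohol-exposed 3xTg-AD mice against WT controls, the log2 differences changed sign with a mouse left out, with ranges of -0.051 to 0.23 for Insig1, -0.22 to 0.029 for Cyp46a1, -0.070 to 0.071 for Hmgcs1, -0.028 to 0.20 for Sqle and -0.037 to 0.15 for Srebf2. Without the 3 mice with the most Gm42418, Sqle was -0.17 and Srebf2 -0.19, and with the covariate -0.16 and -0.35. Without those mice r was -0.18 for Hmgcs1 and Cyp46a1 and -0.25 for Sqle and Cyp46a1. With plain CPM r was 0.23 for Insig1 and Srebf2, and 2 pairs passed correction. The causes were not tested. DESeq2 gave no adjusted p for 3 of the values, and the leptomeningeal class could not be fitted without the 3 mice. It was also not fitted with nuclei assigned by marker UMIs. Without nuclei with markers of a second class, neither it nor endothelial cells were fitted, so these fits covered fewer classes. In microglia and perivascular macrophages, simulated 2-fold changes were recovered in 48% of genes and 1.5-fold changes in 9%.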
